A study of Mus musculus with 35 samples.

Results

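New H3K27me3 domains in pre-B cells with dominant-negative Ikaros were regions that carried a broad peak of trimethylated lysine 27 of histone H3 in the mutant cells and no peak of that mark in wild-type cells. Members were chosen by the H3K27me3 peaks of both genotypes: an autosomal peak of the mutant (IKDN) list had to span at least 3000 bp and share not even 1 bp with any wild-type (WT) peak. The rule found 2271 new domains among 10598 mutant peaks of that width, and among 62107 mutant peaks of any width. The cells of both genotypes were mouse pre-B cell progenitors that adhere to stroma, at passages 3 to 8. WT cells were compared with cells from mice of genotype IKDN CD2 Cre, in which a Cre recombinase under CD2 control is paired with the dominant-negative Ikaros allele. CD2-Cre acts in lymphocytes broadly and is not limited to B cells. The series has 35 chromatin immunoprecipitation libraries, and 33 peak lists were used here, 16 WT and 17 IKDN. With 1 library for each genotype and target, nothing was replicated, and no error between cultures and no p-value can be given. Differences between the genotypes are differences between those libraries.

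H3K27me3 is laid down by Polycomb repressive complex 2 and marks genes and regulatory regions that are kept silent. Acetylation of the same lysine, H3K27ac, marks active enhancers and promoters, and 1 histone tail cannot carry both. Ikaros, encoded by Ikzf1, is a zinc finger DNA-binding protein of lymphocytes that works with chromatin remodelling and histone deacetylase complexes. Dominant-negative forms lack the DNA-binding fingers but still pair with normal Ikaros proteins. In pre-B cells Ikaros is known to promote differentiation and to restrain growth and stromal adhesion. Among the marks that describe what the new domains were in WT cells, H3K4me3 lies at promoters, H3K4me1 at enhancers and H3K36me3 along transcribed gene bodies. RNAPII here is RNA polymerase II phosphorylated on serine 5.

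Promoters that carried both H3K27ac and Ikaros in WT cells and lay inside a new domain in IKDN cells are shown first, as genes that bore an active mark in WT cells. The 250 bases upstream of the RefSeq start site are printed for 6 of them, 5′ to 3′ in the direction of transcription, to show how they range from dense to empty in CG dinucleotides, the bases marked in capitals. The sequences are RefSeq's for build GRCm38.p6. Cacnb2 lies at chr2:14604056-14604305 on the plus strand, Prkcq at chr2:11172132-11172381 on the plus strand, and Foxc1 at chr13:31806396-31806645 on the plus strand. Mycn lies at chr12:12941837-12942086 on the minus strand, Dnajc6 at chr4:101507726-101507975 on the plus strand, and Rd3l at chr12:111980752-111981001 on the minus strand.
Cacnb2: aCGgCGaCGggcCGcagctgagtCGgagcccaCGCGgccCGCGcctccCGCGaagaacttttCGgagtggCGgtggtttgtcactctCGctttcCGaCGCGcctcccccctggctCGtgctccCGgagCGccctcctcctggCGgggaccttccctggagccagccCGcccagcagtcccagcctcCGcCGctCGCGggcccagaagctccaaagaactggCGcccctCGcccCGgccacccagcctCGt
Prkcq: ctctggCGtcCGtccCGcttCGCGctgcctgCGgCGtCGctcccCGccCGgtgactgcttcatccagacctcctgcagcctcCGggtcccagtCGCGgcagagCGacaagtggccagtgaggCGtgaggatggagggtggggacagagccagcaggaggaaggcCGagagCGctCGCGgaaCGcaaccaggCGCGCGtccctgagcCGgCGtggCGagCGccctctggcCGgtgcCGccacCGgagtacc
Foxc1: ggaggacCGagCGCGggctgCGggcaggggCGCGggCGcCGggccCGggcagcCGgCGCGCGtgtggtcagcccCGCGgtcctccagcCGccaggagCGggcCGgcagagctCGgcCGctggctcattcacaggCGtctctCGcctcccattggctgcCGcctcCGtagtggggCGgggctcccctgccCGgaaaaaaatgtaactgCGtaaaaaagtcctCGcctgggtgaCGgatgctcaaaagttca
Mycn: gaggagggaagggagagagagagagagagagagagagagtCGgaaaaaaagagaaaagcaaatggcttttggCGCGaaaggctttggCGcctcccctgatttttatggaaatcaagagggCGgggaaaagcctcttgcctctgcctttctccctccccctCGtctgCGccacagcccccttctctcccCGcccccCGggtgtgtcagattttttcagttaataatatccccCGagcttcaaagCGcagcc
Dnajc6: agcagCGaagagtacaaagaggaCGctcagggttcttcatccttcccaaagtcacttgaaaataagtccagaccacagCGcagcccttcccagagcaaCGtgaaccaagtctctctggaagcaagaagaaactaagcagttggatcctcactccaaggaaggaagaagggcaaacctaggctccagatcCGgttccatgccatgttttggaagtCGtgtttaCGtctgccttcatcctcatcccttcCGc
Rd3l: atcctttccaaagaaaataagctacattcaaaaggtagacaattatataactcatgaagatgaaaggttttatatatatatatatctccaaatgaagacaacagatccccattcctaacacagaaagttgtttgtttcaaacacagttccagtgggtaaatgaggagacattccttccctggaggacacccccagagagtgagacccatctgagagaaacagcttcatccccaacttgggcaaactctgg
The stretches of Cacnb2 and Prkcq hold 30 CG dinucleotides each, and that of Foxc1 holds 29. Mycn has 11, Dnajc6 has 8 and Rd3l has 0. A WT Ikaros peak overlapped the printed bases of Prkcq, Foxc1, Mycn and Dnajc6. The core letters that Ikaros family proteins bind, TGGGAA on either strand, were found in the stretch of Dnajc6, with 2 matches, and in none of the other 5.

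Most new domains were modest in width, and a few were very wide. The median width was 4.38 kb (quartiles 3.53 and 5.80 kb), 140 domains reached 10 kb and 18 reached 20 kb. Together they spanned 12.2 Mb. They were measured against 2 other sets: 8327 kept domains, which are IKDN peaks of the same minimum width that overlap a WT peak, and 1456 lost domains, which are WT peaks of that width with no IKDN peak. Kept domains were wider, with a median of 5.73 kb, and lost domains had 4.12 kb. The authors' peak score, whose scale is not stated, had a median of 65.5 in new domains and 113.5 in kept domains of the same list. At the limit of the rule, 120 members were within 100 bp above 3000 bp, and 133 IKDN-only peaks were within 100 bp below it. The nearest WT H3K27me3 peak lay 23.6 kb away at the median. For 520 domains (22.9%) it lay under 5 kb away, and for 483 it lay at least 100 kb away.

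New domains were spread over all 19 autosomes but not evenly. Chromosome 11 held 17.3 per 10 Mb, and chromosome 10 held 4.98. Their shares of all IKDN peaks of at least 3000 bp were close, 21.7% on chromosome 11 and 20.8% on chromosome 10. The contrast in density between these chromosomes was therefore not particular to new domains. Across the autosomes that share ran between 14.8% on chromosome 15 and 30.9% on chromosome 6. By the authors' annotation, 1279 (56.3%) were intergenic, 819 (36.1%) intronic and 85 (3.74%) at promoters, where 8.54% of kept and 7.01% of lost domains were at promoters. A RefSeq start site lay inside 239 new domains (10.5%), 31.0% of kept and 19.02% of lost domains. When domains within 20 kb of each other were joined, 1182 stood alone, and 146 groups of 3 or more held 621 of them (27.3%).

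In WT cells most of these regions carried none of the 6 chromatin marks considered. Of the 2271 new domains, 1910 (84.1%, exact Clopper-Pearson 95% interval 82.5 to 85.6%) had no WT peak of H3K27ac, H3K4me1, H3K4me2, H3K4me3, H3K36me3 or RNAPII. A WT H3K27ac peak lay in 173 (7.62%, interval 6.56 to 8.79%), H3K36me3 or RNAPII without H3K27ac in 50 (2.20%), and methylated H3K4 alone in 138 (6.08%). These intervals, and all others here, cover counting error only, and neighbouring domains are not independent. The acetylated class was wider than the unmarked class, with a median of 5.64 against 4.26 kb. It also lay farther from WT H3K27me3, 40.2 against 22.1 kb.

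WT factor peaks, of B lineage factors and of TEAD1, were more frequent in the acetylated class than in the unmarked class. WT Ikaros peaks lay in 95 of those 173 domains (54.9%), and PAX5, the factor that fixes B cell identity, in 98 (56.6%). EBF1, which opens chromatin in early B cells, lay in 50 (28.9%), and TEAD1, the DNA-binding partner of YAP in the Hippo pathway, in 49 (28.3%). In the unmarked class Ikaros was in 17 of 1910 domains (0.890%), EBF1 in 27, PAX5 in 138 (7.23%) and TEAD1 in 91 (4.76%). The classes were set by WT marks. How often these factors lie on WT H3K27ac outside the new domains was not worked out, so the contrast is a description. Over all new domains, 138 (6.08%, interval 5.13 to 7.14%) held a WT Ikaros peak, against 10.2% of kept and 16.4% of lost domains. Among domains narrower than 5 kb, where width differs less between the sets, the shares were 3.94%, 5.20% and 11.1%. By length, WT Ikaros peaks covered 0.263% of the new domains and 0.298% of all autosomes. In the same order WT PAX5 covered 0.855 and 1.07%, EBF1 0.170 and 0.191%, and TEAD1 0.258 and 0.232%. Of the 138 domains with WT Ikaros, 95 (68.8%) carried WT H3K27ac, and of the 2133 without it, 78 did (3.66%). PAX5 showed the same lean, present in 99 of the 138 (71.7%) and in 193 of the 2133 (9.05%).

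**Figure D1:**
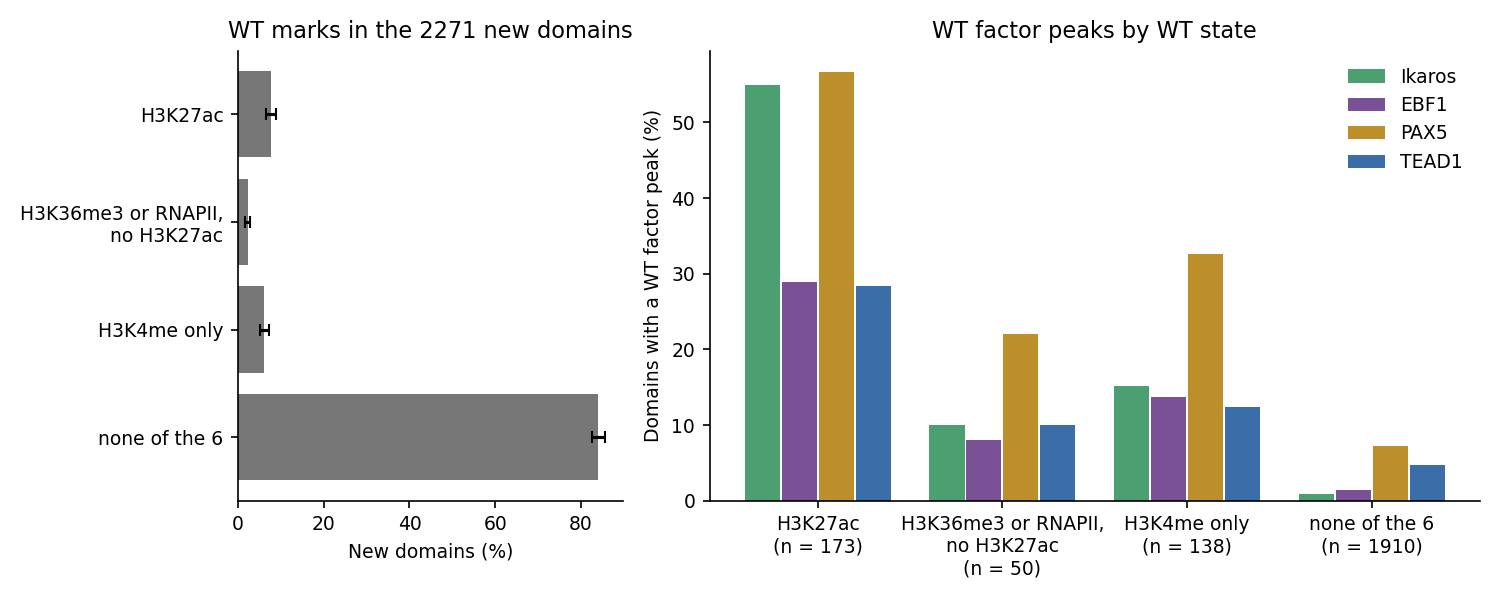
Left, the percent of the 2271 new domains in each WT class, with 95% Clopper-Pearson intervals. Right, the percent of the domains of each class with a WT peak of Ikaros, EBF1, PAX5 or TEAD1. Most domains had none of the 6 marks, and Ikaros was at 54.9% in the acetylated class and 0.890% in the unmarked class.

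Where the new domains had H3K27ac in WT cells, nearly all of it was missing in IKDN cells. WT H3K27ac peaks covered 367 kb of the new domains (3.01% of their length), and IKDN peaks covered 34.1 kb (0.280%). Over all autosomes the 2 lists covered 2.85 and 3.00%, so the IKDN list was not shorter overall. In bulk chromatin fewer cells of a type and less of a mark per cell cannot be told apart. In kept domains the coverage was 1.25 and 0.925%, and in lost domains 5.62 and 14.1%. Of the 173 acetylated domains, 30 (17.3%, interval 12.02 to 23.8%) still had an IKDN H3K27ac peak. The RNAPII peaks fared alike, present in 105 WT domains and again in 23 of these (21.9%). H3K36me3 was present in 54 domains and again in 12 (22.2%). The methylated forms of H3K4 were found again more often: H3K4me1 in 150 of 257 domains (58.4%), H3K4me2 in 151 of 241 (62.7%) and H3K4me3 in 51 of 99 (51.5%). No such shares were worked out for kept or lost domains or for all WT peaks, so they have no background here.

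Factors differed in how often their peaks in the new domains were found again in IKDN cells. Of 100 domains with a WT EBF1 peak, 64 had an IKDN EBF1 peak. For PAX5, on the 18 autosomes that are complete in both lists, the count was 202 of 286 (70.6%). TEAD1 was found again in 76 of 162 domains (46.9%) and IRF4, a factor of late pre-B cells, in 27 of 62 (43.5%). ETS1 was found again in 27 of 65 domains (41.5%), E2A in 11 of 49 (22.4%) on its 11 complete autosomes, and Aiolos, an Ikaros relative, in 0 of 9. IKDN peaks lay in more new domains than WT peaks for EBF1 (142 against 100), TEAD1 (184 against 162) and IRF4 (72 against 62). PAX5 also had more, 346 against 286 on its 18 autosomes. Over all 2271 new domains, IKDN peaks lay in 62 for ETS1, 33 for E2A and 1 for Aiolos. On the autosomes complete in both lists the counts were 57 for ETS1 and 20 for E2A. LHX2 and LMO2, transcriptional regulators outside the B lineage program that were mapped in IKDN cells only, lay in 57 (2.51%) and 38 (1.67%) new domains. The shares were 6.86 and 2.34% in kept and 14.6 and 9.96% in lost domains. The IKDN lists of EBF1, TEAD1, IRF4, ETS1 and PAX5 are longer than the WT lists, and those of E2A and Aiolos are shorter. The part of list length in these shares was not tested. For the factors too, found-again shares were not worked out for kept or lost domains or for all WT peaks. H3K27me3 and these factors were mapped in populations, and whether they share the same DNA molecules was not tested.

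**Figure D2:**
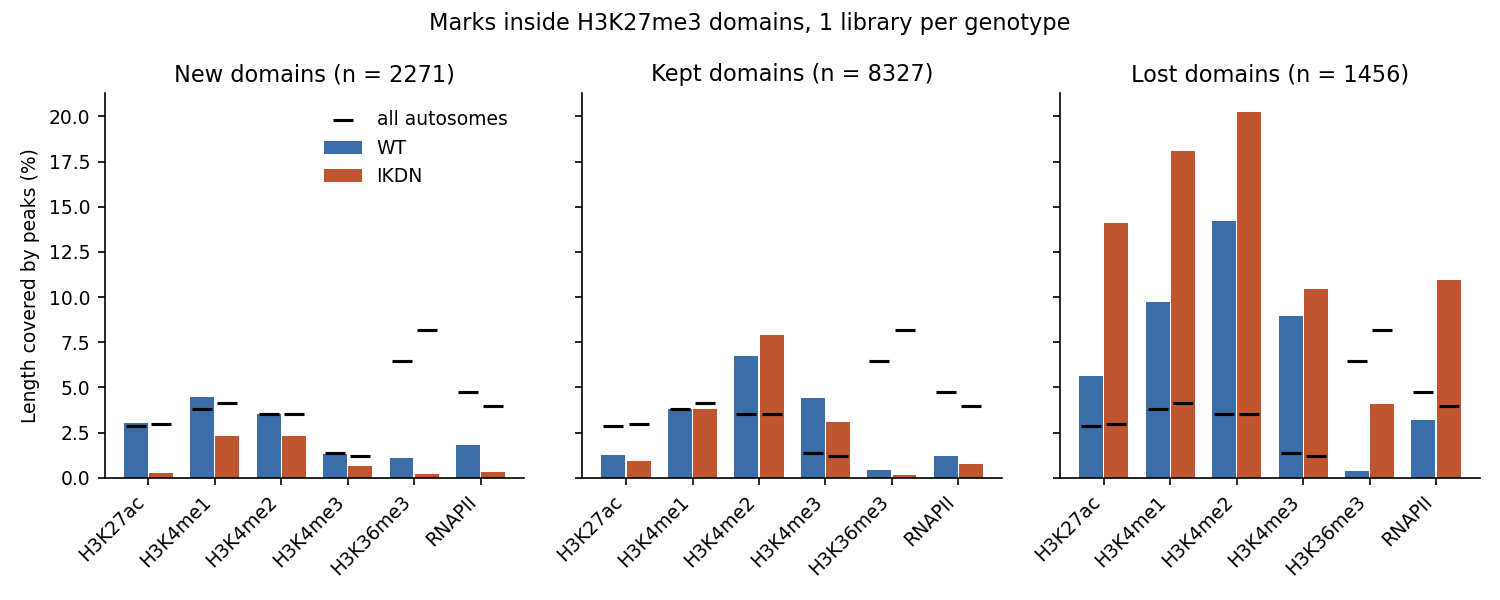
Percent of the domain length covered by peaks of 6 targets, in WT (blue) and IKDN (orange) cells, for new, kept and lost domains, with the coverage of all autosomes as black lines. In new domains H3K27ac covered 3.01% in WT and 0.280% in IKDN cells, and in lost domains 5.62 and 14.1%.

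Of the 10 widest new domains, 5 lay inside long protein-coding genes and 5 outside them, and 7 of the 10 held no WT H3K27ac. The widest, 74.7 kb at chr7:96554726-96629420, and a second of 33.7 kb at chr7:96637819-96671507 both lay within intron 5 of Tenm4, a teneurin of the cell surface known from the nervous system. Neither held a WT peak of H3K27ac, H3K4me1 or Ikaros. Slc24a3, a sodium, potassium and calcium exchanger, held a 40.2 kb domain at chr2:145584703-145624937, also with no WT H3K27ac. A 31.9 kb domain at chr2:80068630-80100551 lay in Pde1a, a calmodulin-dependent phosphodiesterase. Sytl2 differed from these. This synaptotagmin-like protein of vesicle transport held a 55.0 kb domain at chr7:90344486-90399528, where WT cells had 8.02 kb of H3K27ac, 20.9 kb of H3K4me1 and 6 Ikaros peaks, and IKDN cells had neither mark.

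The 10 genes with most body length in new domains followed both patterns. Tenm4 had 167 kb in 11 domains, Asic2, an acid-sensing ion channel subunit, 147 kb in 25, and Megf10, a receptor for engulfment of cell debris, 86.5 kb in 10. Cep112, a centrosome protein, had 75.9 kb, Sytl2 73.5 kb, Pde1a 73.2 kb, and Grik4, a kainate receptor subunit, 72.9 kb. Rgs6, a regulator of G protein signalling, had 69.7 kb, Pde11a, another phosphodiesterase, 52.1 kb, and Grik3, a further kainate receptor subunit, 42.8 kb. To compare the genotypes, the bases under peaks were summed across each gene's body and 10 kb flanks. The call was lower when IKDN cells had at least 1000 bp less and WT cells at least 1.5 times as much, and higher in the reverse case. At Megf10 H3K27ac covered 33.4 kb in WT cells, with 0 in the mutant, Pde11a had 18.8 and 3.46 kb, and Sytl2 had 11.9 kb and 0. All 3 were called lower. In contrast, H3K27ac was called higher at Tenm4 (0 and 12.2 kb), Asic2 (4.54 and 29.9 kb), Pde1a (0 and 9.06 kb), Grik4 (0 and 5.24 kb) and Rgs6 (0 and 3.53 kb), and none of those IKDN peaks lay in a new domain. Cep112, Grik3 and Slc24a3 were not called, Cep112 with 1.43 and 0.925 kb, a difference under 1000 bp.

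Grouped domains also differed in the H3K27ac they had in WT cells. The group with most domains, 17 at chr11:71403711-71603022, spanned 199 kb of which 131 kb lay in new domains, and had no WT H3K27ac and no WT Ikaros peak. The next by length, 11 domains at chr1:89224118-89377318, had none of either. A group of 10 domains at chr3:38041377-38206878 held 12 WT Ikaros peaks and 21.5 kb of WT and 16.0 kb of IKDN H3K4me1. At Megf10, 13 domains covered ground with 32.5 kb of H3K27ac in WT cells and 0 in IKDN cells, and 14 WT Ikaros peaks. At Sytl2, 8 domains at chr7:90277588-90440157 covered ground with 15.6 kb of WT H3K27ac, 36.3 kb of WT H3K4me1 and 14 WT Ikaros peaks, and IKDN cells had 0 of either mark.

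**Figure D3:**
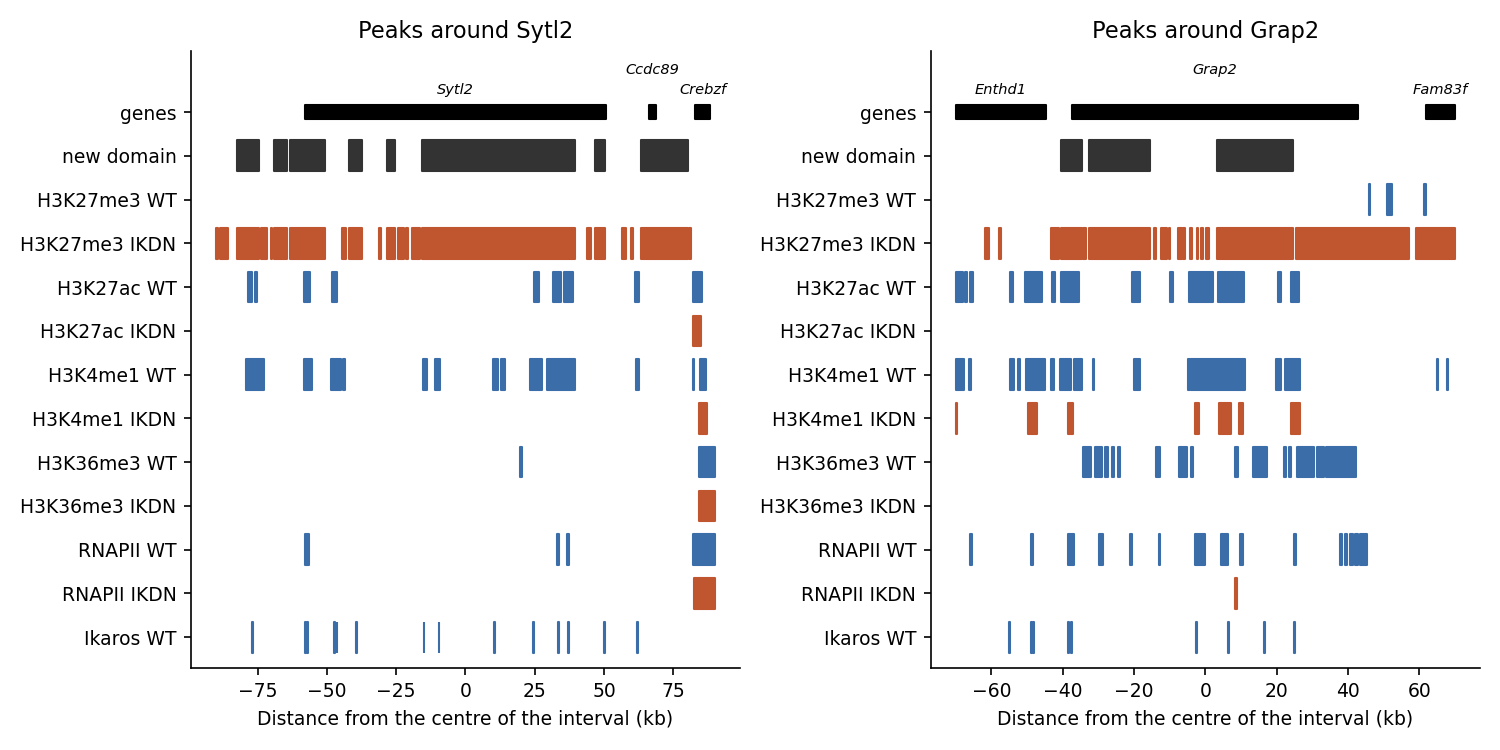
Peaks around Sytl2 (left) and Grap2 (right), as bars along the distance from the centre of the interval in kb, for WT (blue) and IKDN (orange) lists, with genes and new domains in black. Over both genes IKDN H3K27me3 bars lie where WT H3K27ac bars were. Some of the WT Ikaros bars lie on WT H3K27ac bars.

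The immunoglobulin kappa variable region held more new domains than the heavy chain variable region, the other of the 2 loci examined. These gene segments are joined to make the light chain when pre-B cells differentiate. Over the interval of the 162 annotated segments, chr6:67555636-70704177, lay 17 new domains covering 120 kb. Of these 17, 6 had WT H3K27ac, and the 17 held 15.7 kb of H3K27ac in WT and 0.108 kb in IKDN cells. They overlapped 6 of the 162 segments. Over the whole interval WT H3K27me3 covered 38.8 kb, IKDN H3K27me3 297 kb, and H3K27ac 347 and 37.9 kb in that order. RNAPII covered 108 and 14.5 kb there, and 216 WT Ikaros peaks lay in the interval. The heavy chain variable region had 2 new domains covering 7.48 kb, with 144 and 177 kb of H3K27me3 and 312 and 99.1 kb of H3K27ac over the interval. None of that H3K27ac lay in the 2 new domains. Variable segments resemble each other, and how reads that match several were placed is not given in the sources used here, so values at single segments are uncertain.

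New domains touched the bodies of 621 of 20665 autosomal protein-coding genes. These genes were long, with a median of 91.7 kb against 17.5 kb over all, and the part of gene length in the counts below was not tested. H3K27ac was called lower at 127 of the 621 (20.5%), and the background over all genes was 8.65%. It was called higher at 117 (18.8%), with a background of 12.9%. Both directions were above the background. The genes over kept domains had 10.7% lower and 11.4% higher. H3K36me3 was called lower at 53 genes (8.53%, background 2.33%) and higher at 48 (7.73%, background 15.3%). RNAPII was called lower at 121 (19.5%, background 14.8%) and higher at 79 (12.7%, background 17.9%). H3K4me3 was called lower at 104 (16.7%, background 5.68%) and higher at 27 (4.35%, background 2.24%). The enhancer mark H3K4me1 leaned towards higher calls, lower at 114 (18.4%, background 14.2%) and higher at 151 (24.3%, background 13.2%). H3K4me2 was lower at 96 (15.5%, background 6.54%) and higher at 159 (25.6%, background 8.28%).

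Of the 53 genes called lower in H3K36me3, 38 were also called lower in H3K27ac and 35 in RNAPII, and 30 were lower in all 3. Over all genes, 482 were called lower in H3K36me3, and 142 of these were lower in all 3. How many of the 482 were lower in H3K27ac, or in RNAPII, was not worked out. The following examples were chosen after their values were seen. Dock8, an activator of Cdc42 in lymphocytes, had 129 kb of H3K36me3 in WT cells and 0 in IKDN cells, with 7 new domains in its body and H3K27ac of 6.97 and 1.63 kb. Its RNAPII, 1.13 and 0.5 kb, was not called. Grap2, an adaptor protein of antigen receptor signalling, had 41.1 kb of its body in 3 new domains. Over the gene and its flanks H3K27me3 went from 1.67 to 81.1 kb, H3K27ac from 27.4 kb to 0, H3K36me3 from 30.6 kb to 0 and RNAPII from 14.3 to 0.5 kb. Adgrl2, an adhesion G protein-coupled receptor, had 99.6 kb of RNAPII and 46.6 kb of H3K36me3 in WT cells and 0 of both in IKDN cells. Gfra2, a receptor for neurturin, had 43.0 and 1.27 kb of H3K36me3, and Eps8, an actin-capping adaptor, had 52.2 and 2.81 kb. Map3k8, a kinase of the ERK pathway, had 18.1 and 1.88 kb. At Ptprj, a receptor tyrosine phosphatase, H3K27ac went from 61.3 to 16.8 kb with 5.85 kb of its body in 1 new domain, and its H3K36me3, 38.5 and 27.9 kb, was not called. Not every gene looked at in this way was lower. Prdm1, the regulator of plasma cell fate, had 5.16 and 7.26 kb of H3K27ac, not called, and H3K36me3 was called higher, with 0 and 7.90 kb. RNAPII at Prdm1 was called higher too, with 1.43 and 3.41 kb. Although 3.17 kb of its body lay in 1 new domain, Prdm1 and its flanks had less H3K27me3 in the mutant, 16.4 and 7.64 kb, WT first. Nfatc2, a factor of calcium signalling, had no H3K27ac in either genotype.

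**Figure D4:**
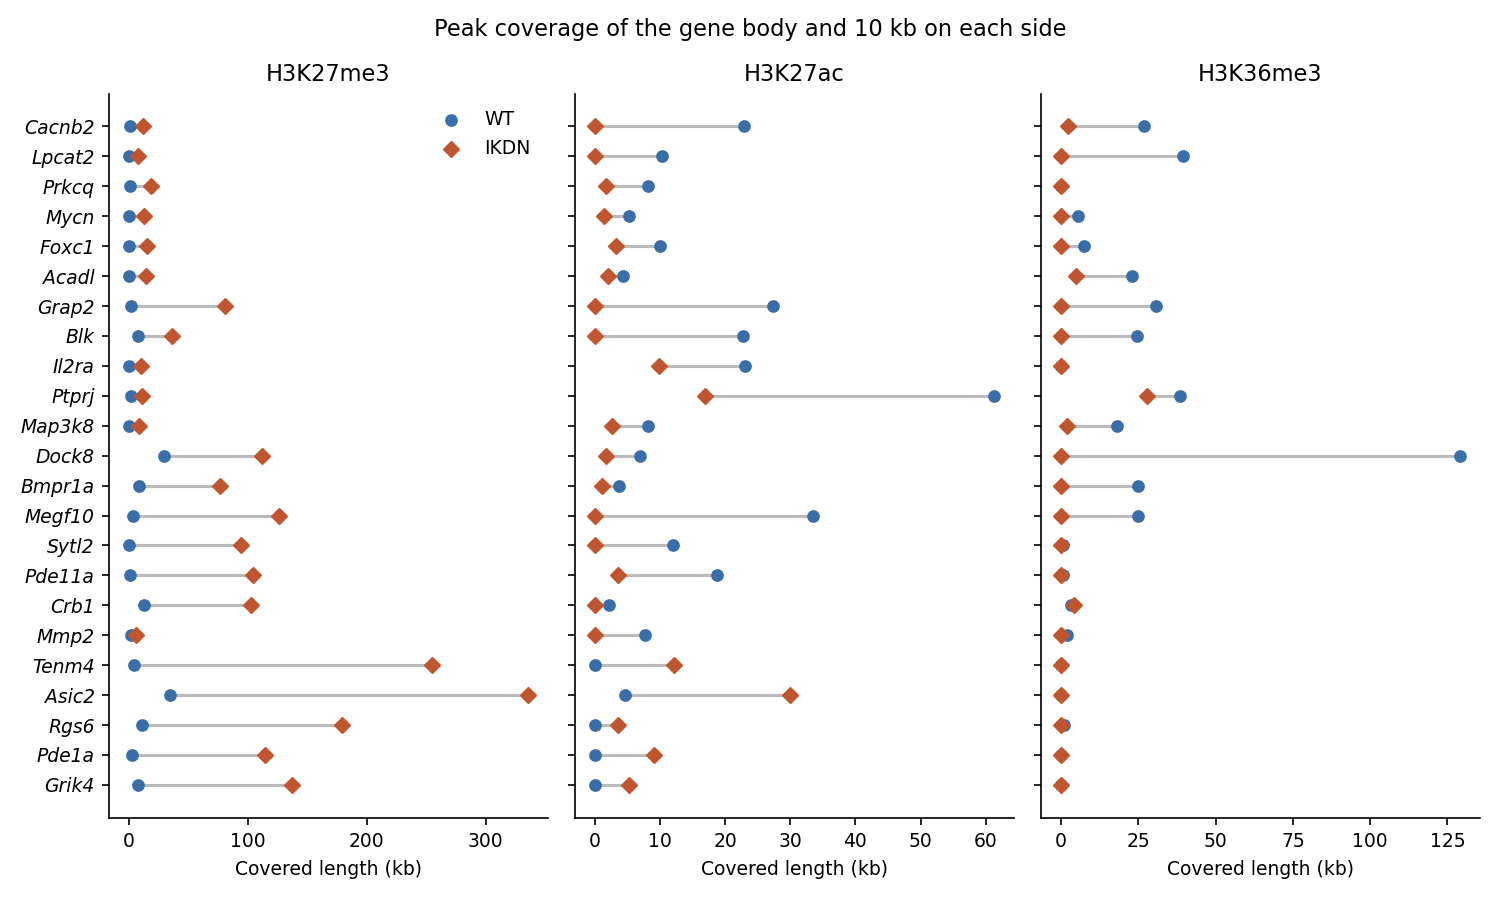
Length in kb covered by H3K27me3, H3K27ac and H3K36me3 peaks across the gene with 10 kb flanks, in WT (blue circles) and IKDN (orange diamonds) cells, for 23 named genes. From Cacnb2 down to Mmp2 H3K27ac was lower in IKDN cells, and at the 5 long genes from Tenm4 to Grik4 it was higher.

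Start sites of 258 RefSeq genes lay inside new domains, 152 of them protein-coding and 106 long non-coding. At 103 of the 152 protein-coding start sites no WT peak of the 6 marks lay within 2.5 kb. WT H3K27ac lay within 2.5 kb of 30 (19.7%), where the share was 17.1% of start sites in kept domains and 55.4% of all. IKDN H3K27ac lay within 2.5 kb of 18, and both did of 13. Of the 30, 23 also had a WT Ikaros peak in that window, and 26 of the 152 had Ikaros (17.1%), against 16.6% in kept domains and 49.9% of all. H3K4me3 was found at 36 start sites in each genotype (23.7%, against 60.1% of all in WT and 59.3% in IKDN cells), at 23 of them in both. H3K4me2 was found at more start sites in IKDN cells, 37 in WT (24.3%, against 62.6% of all) and 56 in IKDN cells (36.8%, against 65.4%). RNAPII lay at 24 in WT (15.8%, against 53.3% of all) and 12 in IKDN cells, and H3K36me3 at 6 and 0.

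Among the 23 start sites with both WT H3K27ac and WT Ikaros, the 10 with most WT H3K27ac in the window are described here. At Cacnb2, a calcium channel beta subunit, 4.59 kb of H3K27ac and 3.83 kb of H3K4me3 in WT cells were both 0 in IKDN cells, in a 10.4 kb domain 206 kb from the nearest WT H3K27me3. Over the gene and its flanks RNAPII covered 132 kb and 0. Lpcat2, a lysophospholipid acyltransferase, had 4.38 kb of H3K27ac and 4.48 kb of H3K4me3, and 0 of both in IKDN cells. Dnajc6, a co-chaperone that uncoats clathrin vesicles, and Rd3l, a little-studied gene, also had neither mark in IKDN cells, from 2.61 and 2.92 kb of WT H3K27ac. These 4 promoters were without both marks in IKDN cells.

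The other 6 kept H3K4me3 under the new H3K27me3. Mycn, a growth-promoting transcription factor of the Myc family, had 3.80 and 3.58 kb of H3K4me3, WT first, with H3K27ac of 4.10 and 1.37 kb, in a 12.4 kb domain. Foxc1, a forkhead factor of mesenchyme, for which stromal marker values are given with the stromal list, had 3.58 and 3.07 kb of H3K4me3 and 3.21 and 2.65 kb of H3K27ac, in a 15.5 kb domain. Prkcq, protein kinase C theta of antigen receptor signalling, had 2.40 and 1.19 kb of H3K4me3, and H3K27ac of 4.14 kb and 0. Acadl, a mitochondrial acyl-CoA dehydrogenase, had 2.91 and 1.95 kb of H3K4me3, Tubb3, a neuronal tubulin, 2.51 and 1.23 kb, and Ltk, a receptor tyrosine kinase, 2.47 and 1.54 kb. H3K27ac at these 3 was between 3.11 and 3.60 kb in WT and between 0.5 and 0.943 kb in IKDN cells. At all 6, H3K4me3 and H3K27me3 were both found near the start site in IKDN cells, and whether they lie on the same nucleosomes or in different cells was not tested.

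The promoters in new domains were poorer in CG dinucleotides than those of all genes, except where WT cells had H3K27ac. Polycomb is known to settle at CG-rich promoters that are not transcribed. In the 300 bases from 250 before to 50 after the start site, the median count was 20.5 for the 30 genes with WT H3K27ac and 7.5 for the 122 without it. It was 18 for 2247 genes in kept domains, 20 for 232 in lost domains and 14 for all 16457 protein-coding genes with a listed promoter. At least 10 CG dinucleotides were found in 24 of the 30 (80.0%), 51 of the 122 (41.8%) and 58.5% of all. The promoters of all genes were not split by WT H3K27ac, so the contrast between the 30 and the 122 has no background here. The Ikaros core TGGGAA, sought on both strands, was in 28 of 152 promoters in new domains (18.4%, interval 12.6 to 25.5%) and in 24.1% of all. The ETS core CCGGAA was in 8.55% and 19.5% of all, the TEAD letters GGAATG in 15.1% and 13.2%, and the E-box CAGCTG in 19.7% and 15.2%. The ETS core itself holds a CG dinucleotide.

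**Figure D5:**
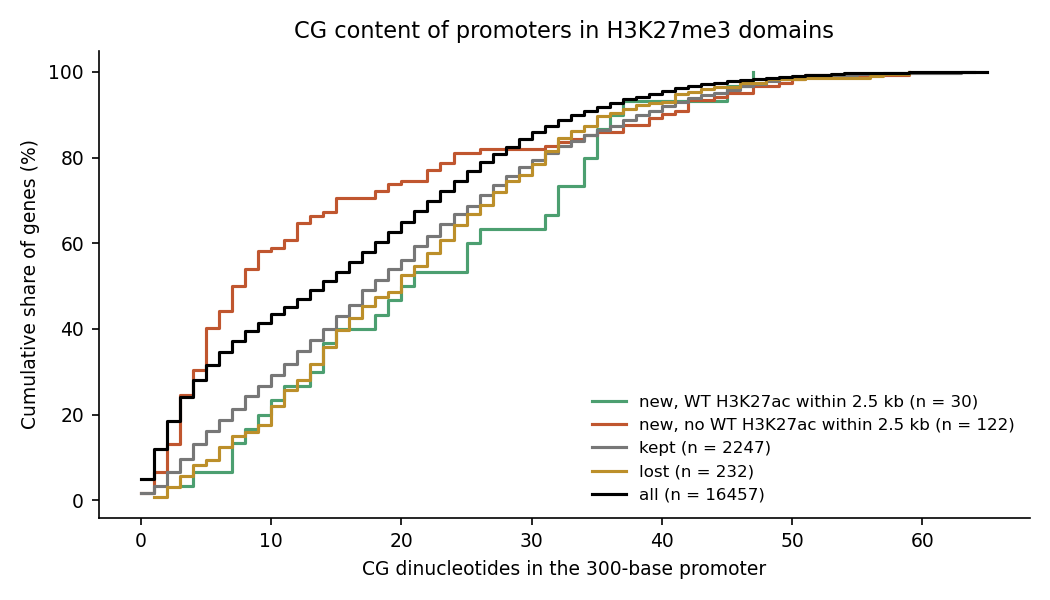
Cumulative percent of protein-coding genes (vertical) by the number of CG dinucleotides in the 300-base promoter (horizontal), for start sites in new domains with or without WT H3K27ac within 2.5 kb, in kept and lost domains, and for all genes. New domains without WT H3K27ac have a median of 7.5, left of the 14 for all genes, and those with it have 20.5.

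Gene lists for this tissue were counted next. A new domain touched 20 of 347 listed genes (5.76%), where it touched 3.01% of all protein-coding genes. H3K27ac was called lower at 13 of the 20 and higher at 0, next to the 127 and 117 of all 621 touched genes. With or without a new domain, it was called lower at 67 of the 347 listed genes and 1788 of all 20665 genes. The lists were drawn up with earlier results of these data known, so their shares are a description. From the B lineage identity list of 26 genes there was 1, Blk, a B cell kinase of the Src family, which a new domain overlapped by 1.02 kb. Its H3K27ac was 22.7 kb in WT and 0 in IKDN cells, its H3K36me3 24.6 kb and 0, and its RNAPII 23.2 kb and 0. From 24 pre-B differentiation genes there was 1, Il2ra, the interleukin 2 receptor alpha chain that appears on late pre-B cells, with H3K27ac of 23.1 and 9.75 kb and RNAPII of 17.4 and 2.78 kb. No gene was touched in the lists of T cell markers, myeloid markers, Polycomb subunits and H3K27 demethylases, or housekeeping genes.

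The neuronal list had 5 of 25 genes touched (20%) and the cell polarity and junction list 5 of 29 (17.2%). The part of gene length in these shares was not tested. Pde11a, Sytl2 and Pde4d were called lower in H3K27ac, Pde4d with 17.6 and 8.18 kb. The NMDA receptor subunit Grin2a and the synaptic protein Snap25 had 0 in both genotypes. Of the polarity genes, Crb1, an apical determinant of epithelia, had 40.7 kb in 6 domains and H3K27ac of 2.15 kb and 0. Dlg5, a scaffold at cell contacts, had 1.44 kb and 0. The tight junction genes Tjp1 and Cldn1 had none in either genotype, and Cdh1, E-cadherin, had 0 and 0.5 kb. Single genes came from the lists of growth factor signalling, transcription factors, adhesion and cell cycle. Bmpr1a, a bone morphogenetic protein receptor, had 24.9 kb of H3K36me3 in WT and 0 in IKDN cells, and Runx2, which directs bone formation, had 7.70 and 4.26 kb of H3K27ac. Tns1, a tensin, had 4.73 and 5.13 kb and was not called, and the cell cycle gene was Mycn, given above.

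From 25 stromal fibroblast markers there were 3 (12%): Col1a1, Cxcl12 and Mmp2. Mmp2, a gelatin-degrading protease, had 7.69 kb of H3K27ac and 6.25 kb of H3K4me3 in WT cells and 0 of both in IKDN cells, but its flank takes in the promoter of the neighbouring Lpcat2. The new domain lies on the Lpcat2 start site and overlaps the Mmp2 body by 1.02 kb. Short of the Lpcat2 start site window, Mmp2 had 3.31 kb of H3K27ac and 1.78 kb of H3K4me3 in WT cells and 0 of both in IKDN cells. Col1a1, a collagen chain, had 3.22 and 1.16 kb of H3K27ac. Cxcl12, the chemokine by which stroma holds B cell precursors, had 1.497 and 0.5 kb, which was not called, and its RNAPII was called higher, with 4.38 and 10.3 kb. These cells adhere to stroma, so stromal markers were examined as a group. Of 8 stromal markers, 5 carried H3K4me3 over the body and 2.5 kb flanks in WT cells, 19.6 kb in sum, and 1 did in IKDN cells, with 0.933 kb. H3K27ac summed to 12.9 kb over 5 in WT and 5.63 kb over 3 in IKDN cells, and Dcn and Lum were at 0 for both marks in both genotypes. These stromal values move in the same direction as H3K27ac in the new domains at Foxc1 and Megf10, and their part in those results was not tested.

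The labels of the cells were checked against markers of their type. All 10 pre-B markers, among them Pax5 and Vpreb1, carried H3K4me3 in WT cells over the body and 2.5 kb flanks, 67.2 kb in sum, and 9 did in IKDN cells, with 54.3 kb, where Rag1 was at 0. Of 5 T cell markers, 2 carried H3K27ac in each genotype, with sums of 13.3 (WT) and 9.16 kb (IKDN), and 2 carried H3K4me3, with 5.12 and 2.77 kb. The defining T cell genes Cd3e, Cd3g and Bcl11b were at 0 for both marks. Of 5 myeloid markers, 4 carried H3K27ac in each genotype, with 9.91 and 12.7 kb in sum, and H3K4me3 lay at 3 in WT and 1 in IKDN cells, with 2.04 and 1.02 kb. Mpo was the myeloid marker at 0 for both marks in both genotypes. The H3K27me3 lists held 64622 WT and 62107 IKDN autosomal peaks, which covered 107 and 129 Mb. The depth of the libraries is not given in the lists. In the labels some targets share an antibody entry, so the target of each list rests on its title.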

How the data were processed

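Chromatin immunoprecipitation libraries of WT and IKDN cells were mapped by sequencing. Per the submitters' processing notes, bcl2fastq 1.8.3, BWA, STAR and HOMER were used, and builds mm10 and mm9 are both named. Positions match GRCm38: 96.4% of the start sites worked out from the distances in either H3K27me3 list lay within 1000 bp of their gene. Per the file headers each peak has coordinates, an annotation and a peak score. The score is used as the authors deposited it, on a scale not stated, and only to rank, filter or sum. Whether input libraries served in peak calling is not given in the sources used here.

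Peaks on the 19 autosomes were read with Python 3.11.15, numpy 2.4.6, pandas 2.3.3 and scipy 1.17.1, and the interval code was tested on simulated data. Peaks were joined to domains by 1 bp overlap. Covered length counts each base once. 3 factor lists (WT E2A, WT ETS1, IKDN PAX5) end early and were used on complete chromosomes. Start sites came from the RefSeq promoter table, with 16457 protein-coding genes matched. Shares carry exact 95% Clopper-Pearson intervals, which cover counting error only. Calls are thresholds of 1000 bp and 1.5-fold, not tests. Depth is unknown, since the lists give no read totals.

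Named genes are those in the 10 widest domains, the 10 with most body length in new domains, the 10 start sites with most WT H3K27ac among those with WT Ikaros, and listed genes touched by a domain, of which 1 is not reported here. Dock8, Grap2, Adgrl2, Gfra2, Eps8, Map3k8, Ptprj, Prdm1 and Nfatc2 were chosen after their values were seen. The members and the gene lists were chosen with earlier results of these data known. Alternatives changed the width, the gap to WT peaks, score filters, the overlap needed, the gene flank and the gene call. The 2 input libraries had no peak list and were not analysed here.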

Additional observations from a re-analysis of the deposited data

How the results depend on the processing

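The set grows quickly as the width limit drops. With a width of at least 2000 bp there were 4307 new domains, of which 5.48% had WT H3K27ac and 4.04% WT Ikaros. With at least 5000 bp there were 824, with 12.6% and 9.83%, and 126 genes with a start site inside. At that width 26.7% of genes were called lower in H3K27ac (background 8.65%) and 19.1% higher (background 12.9%). With the top-scored 50% of the WT H3K27ac and Ikaros lists, the shares were 5.24% for H3K27ac and 3.74% for Ikaros. When at least 10% of a domain had to be covered, they were 6.03% and 0.132%, and Ikaros peaks are far narrower than the domains. Counting only protein-coding genes left 152 start sites. With no flank 17.1% of genes were called lower (background 6.41%) and 15.6% higher (background 10.2%). With summed scores 28.0% were called lower (background 18.6%) and 25.1% higher (background 13.3%), so both directions were again above the background. A width of 2000 bp also gave 363 genes with a start site, a gap of over 5000 bp to WT peaks left 1751 domains, and overlap with the top-scored 50% of the WT H3K27me3 list alone gave 3186. The top-scored 50% of the IKDN list held all 2271 members. With a 50 kb flank, 21.4% of genes were called lower and 24.8% higher (backgrounds 10.6 and 16.1%). The cause of these shifts was not tested. No paired analysis was possible because each genotype and target has 1 library. Depth limits are not known, and a peak absent from a list may be a weak signal.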
